A study of Mus musculus with 2 samples.

Results

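Mir221 and Mir222 are neighbouring microRNA (miRNA) genes on the X chromosome, and they were chosen by name, as the 2 of 2202 annotated miRNA genes with these symbols. Their levels were read from small RNA libraries of C2C12, a mouse myoblast line of the C3H strain that can fuse into myotubes, obtained from the ATCC. The libraries hold RNA under 30 nucleotides, and the labels number them as 2 biological replicates of 1 group. No genotype change, treatment, time or stage of culture is named in the labels, and the only comparison the design allows is between the libraries. Counting on the strand of the genes gave 27661907 reads in replicate 1 and 15025315 reads in replicate 2.

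A miRNA gene is transcribed into a long precursor, from which a hairpin and then a short RNA of 1 or both hairpin arms are cut. The short RNA guides Argonaute proteins to messenger RNAs that match its seed, which lowers their stability and translation. The products of Mir221 and Mir222 are best known for lowering p27, the inhibitor of cyclin-dependent kinases that Cdkn1b encodes, and so for allowing cells to keep dividing. In myoblasts they are known to be present during growth and to fall as the cells leave the cell cycle and differentiate.

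The sequences show what the pair shares and what tells its reads apart. Both genes matched the RefSeq miRNA table (GRCm38.p6). The hairpins are printed with the annotated mature RNAs in capitals, 5′ to 3′, and both were identical to the GENCODE M21 entries. The table lists both arms of Mir221 and the 3p arm of Mir222.
Mir221 hairpin: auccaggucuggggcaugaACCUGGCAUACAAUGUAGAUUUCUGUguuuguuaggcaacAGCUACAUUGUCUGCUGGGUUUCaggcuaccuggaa
Mir222 hairpin: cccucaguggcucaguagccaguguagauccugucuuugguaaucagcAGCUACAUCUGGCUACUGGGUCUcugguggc

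The mature RNAs are printed again with the seed, bases 2 to 8, in capitals. They are grouped by the seed that the pair shares, and miR-1928 is shown because it has that seed too.
miR-221-3p: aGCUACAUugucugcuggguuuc
miR-222-3p: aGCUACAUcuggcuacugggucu
miR-1928: aGCUACAUugccagcuc
The arm with another seed is miR-221-5p.
miR-221-5p: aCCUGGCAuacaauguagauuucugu

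The 3p arms of the pair have the same first 8 bases. Of the 15 bases that follow, 3 were the same when the RNAs were aligned without gaps. That count misses a stretch of 6 shared bases, which starts at base 15 of miR-221-3p and base 16 of miR-222-3p. The seed GCUACAU occurs in 3 of the 1738 mature sequences in the table. In all, 556 of these 1738 sequences (32.0%) share their seed with another. The longest stretch common to the Mir221 and Mir222 hairpins was 9 bases. Against all other miRNA hairpins of the annotation the longest shared stretch was 13 bases for Mir221 and 12 bases for Mir222. Among 141767 annotated transcripts, neither 3p arm occurred in full, on either strand, outside the entries of the pair itself. Reads of the pair are therefore unlike those of the families with near-identical copies, which share stretches of at least 20 bases.

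On mm10, Mir221 lies at chrX:19146294-19146388 and Mir222 at chrX:19146893-19146971, both on the minus strand. Mir222 is thus the 5′ gene of the pair, and 504 bases separate the hairpins. No gene of another type overlaps this span of 678 bases in GENCODE M21, so both hairpins are intergenic in that annotation, with no exon, intron or UTR assigned to them. The nearest annotated gene upstream on the same strand is Gm14636, a processed transcript 10009 bases from Mir222. The Mir221 hairpin is 95 bases long with a GC content of 47.4%, and the Mir222 hairpin 79 bases with 54.4%.

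Because the pair is known for acting on p27, the 3′ UTRs of 11 reported targets were searched for the complement of the seed, on the strand of the messenger RNA. The motifs were ATGTAGC, which faces bases 2 to 8, and TGTAGCA, which faces bases 2 to 7 and ends in an A, where an A before the second motif made it a match of the first. For each gene the annotated transcript with the longest 3′ UTR was taken. Over all 20984 protein-coding genes with a 3′ UTR, 9.47% held the first motif and 7.68% the second.

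Cdkn1b, on chromosome 6, held 1 match of the first motif and 2 of the second. The same matches lay in its annotated forms with 3′ UTRs of 3439, 1280 and 1087 bases. The sites are shown with the match in capitals, as 23 bases of the plus strand from GENCODE M21. They are shown since p27 is the target for which the pair is best known.
Cdkn1b at chr6:134924416-134924438: ctctaaaagcattggATGTAGCa
Cdkn1b at chr6:134924492-134924514: tttttatcttttactcTGTAGCA
Cdkn1b at chr6:134924571-134924593: agaacttgcttcaattTGTAGCA
Cdkn1c, which encodes the related inhibitor p57, held 1 match of the first motif, and Kit, a receptor tyrosine kinase, held 2. They are printed as the messenger strand, which is minus for Cdkn1c and plus for Kit.
Cdkn1c at chr7:143458925-143458947: tgggacctttcgttcATGTAGCa
Kit at chr5:75654977-75654999: aatgatgggagatatATGTAGCa
Kit at chr5:75656508-75656530: tttgtaaatattgaaATGTAGCa

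The first motif was found in 10 of these 11 targets, and Kit and the transcription factor gene Ets1 held 2 matches each. Foxo3 held none of the first motif and 1 match of the second. Longer 3′ UTRs hold a motif more often. Of the 3739 genes whose 3′ UTR was within 1.5-fold of the 3439 bases of the longest Cdkn1b form, 22.4% held the first motif. Other annotated Cdkn1b forms have 3′ UTRs of 1280 and 1087 bases, to which that share does not apply. Of the 5268 genes near the 971 bases of Bbc3, another of the targets, 6.44% held it. Of the 4656 genes near the 688 bases of Cdkn1c, 4.47% did. Near the lengths of the other targets the share was 5.87% for Ddit4 and 14.9% for Kit. It was 22.2% for Ets1, 22.9% for Timp3, 24.1% for Bmf, 26.3% for Esr1, 28.1% for Foxo3 and 33.7% for Trps1. Such a match describes the letters of the transcript. How each target came to be reported was not examined, so the 10 of 11 is no test of targeting. The libraries hold no messenger RNA, so the levels of these targets were not measured.

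Both genes were among the 30 most abundant in each library. Mir221 had 462135 reads in replicate 1 and 119153 in replicate 2. As counts per 1e+06 gene-strand reads on miRNA genes (CPM) this is 16707 (exact 95% interval 16659 to 16754) and 7930 (7885 to 7975). Each read is 1 short RNA, so these levels need no correction for gene length. Replicate 1 was the higher library for Mir221, and the mean was 12318 ± 6206 CPM (SD, n = 2).

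Mir222 had 204621 reads in replicate 1 and 61094 in replicate 2, which is 7397 CPM (exact 95% interval 7365 to 7429) and 4066 CPM (4034 to 4098). Its mean was 5732 ± 2355 CPM (SD, n = 2). Mir222 was below Mir221 in both libraries and, like it, lower in replicate 2 on this scale. No read was counted on the opposite strand of either gene in either library. PCR copies are counted as reads here, and the intervals cover no error other than counting.

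By rank, Mir221 was the 13th most abundant gene of replicate 1 and the 17th of replicate 2. Mir222 was 30th and 27th. Both genes thus had fewer CPM in replicate 2, but only Mir221 had a lower place there, and 17 places lay between them in replicate 1 against 10 in replicate 2. The summed share of the pair was 2.41% in replicate 1 and 1.20% in replicate 2.

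**Figure D1:**
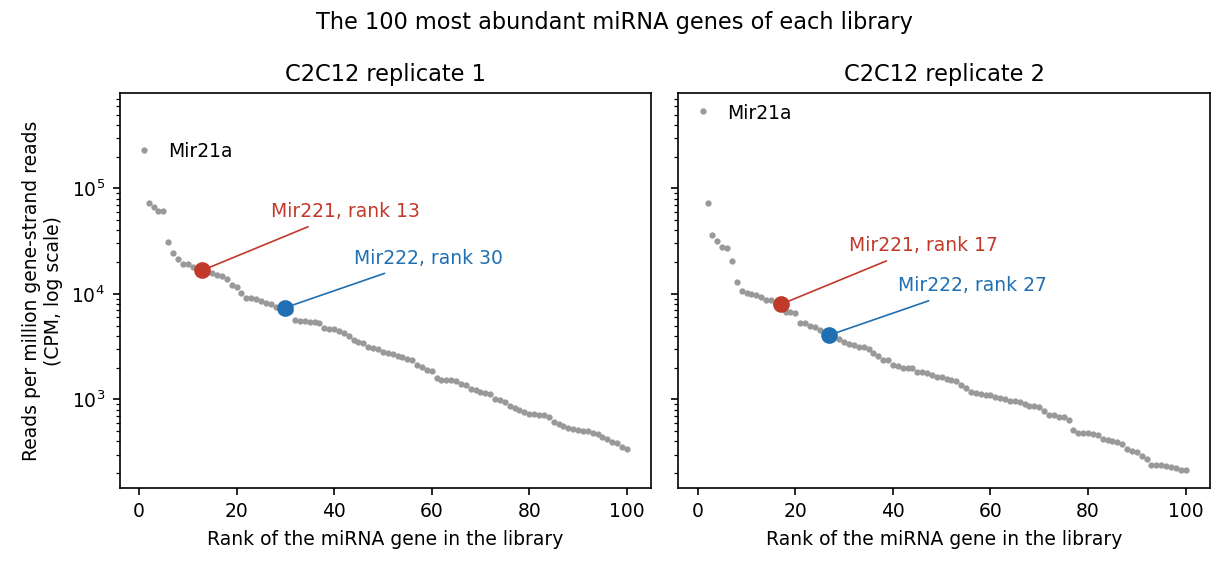
CPM on a log axis against rank for the 100 most abundant miRNA genes of each C2C12 library, each point a gene, with Mir221 in red and Mir222 in blue. Mir221 sits at rank 13 and 17 and Mir222 at rank 30 and 27, on the even slope below the few leading genes, of which Mir21a is the first.

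Part of this difference in CPM is the share of Mir21a in the totals. This miRNA, abundant in many growing cells, held 23.1% of replicate 1 and 53.5% of replicate 2. Per 1e+06 counts on genes other than Mir21a, Mir221 had 21713 in replicate 1 and 17060 in replicate 2, and Mir222 had 9614 and 8747. The coefficient of variation between the libraries was 50.4% for Mir221 and 41.1% for Mir222 in CPM. It was 17.0% and 6.68% with Mir21a left out of the denominator. In bulk RNA, fewer cells with a miRNA and less of it per cell cannot be told apart.

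The neighbours of Mir221 in the order of mean CPM were Mir99b at 13513 ± 5779 and Mir23b at 12870 ± 4560 above it, and Mirlet7b at 11880 ± 5566 and Mir130a at 10296 ± 5143 CPM below it (SD, n = 2). The Mir23b hairpin has a stretch shared with another hairpin, which makes its level uncertain. None of these neighbours differed from Mir221 by more than the SD between the libraries, much of which is the shift that these genes have in common. Within each library Mir99b was above Mir221 and Mir130a below it. Mir23b and Mirlet7b were below Mir221 in replicate 1 and above it in replicate 2, Mirlet7b there by less than the counting interval of Mir221. Around Mir222 stood Mir28a at 6174 ± 4317, Mirlet7d at 5979 ± 3140, Mir196b at 5441 ± 2803 and Mir149 at 5279 ± 3222 CPM (SD, n = 2). Their distances from Mir222 were also smaller than the SDs. All 4 were above Mir222 in replicate 1, Mir196b by less than the counting interval of Mir222, and all 4 were below it in replicate 2. Mir28a has such a shared stretch as well.

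Likeness was measured over both libraries as the distance in TMM-scaled log2 CPM, over 138 genes that averaged 100 CPM or more. The scaling is the trimmed mean of M-values (TMM), which sets the bulk of genes level between libraries. Mirlet7b, a member of the let-7 family, was nearest to Mir221 at a distance of 0.08 on the log2 scale. It was followed by Mir99a at 0.25, Mir99b at 0.26, Mir23b at 0.29 and Mir130a at 0.36. Mir222 was nearest to Mirlet7d at 0.19, then Mir196b at 0.23, Mir155 at 0.33, Mir322 at 0.42 and Mir149 at 0.44. Neither member of the pair was among the 5 genes nearest to the other. With only 2 libraries of 1 group this is mainly likeness of level.

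Another annotated RNA with this seed, miR-1928, was not seen. No read was counted on Mir1928 in either library, which allows up to 0.108 CPM in replicate 1 and 0.200 CPM in replicate 2. All counted reads on hairpins with the seed GCUACAU therefore came from Mir221 and Mir222. The counts are per hairpin and do not separate the arms, so they include reads of miR-221-5p and of the 5′ arm of Mir222.

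Mir221 was the most abundant of the 142 miRNA genes annotated on the X chromosome in these libraries. Mir322, of a cluster known for cell cycle exit in myogenesis, followed at 7066 ± 3016 CPM. Mir222 was next, ahead of Mir98, a let-7 family gene, at 4718 ± 3029 and Mir532 at 2375 ± 1069 CPM (SD, n = 2). The differences between Mir322, Mir222 and Mir98 were smaller than their SDs, but each library gave the same order, with 9199, 7397 and 6860 CPM in replicate 1 and 4933, 4066 and 2577 CPM in replicate 2. The pair took 43.5% of all X-linked miRNA counts in replicate 1 and 43.7% in replicate 2. This share does not depend on the library total, and the pair is itself a large part of the X-linked counts. The X-linked total was 5.54% of the library in replicate 1 and 2.74% in replicate 2. With library totals, which include Mir21a, the median log2 ratio of all tested genes was also low, at -0.81.

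Other miRNAs known to act on a related inhibitor, p21, gave a point of reference for the level of the pair. Of the 6 genes on this list, Mir17 had 17903 and 10609 CPM, Mir20a 12019 and 5278, Mir93 5455 and 2728, and Mir106b 4438 and 2369 CPM in replicates 1 and 2. Mir106a and Mir20b were low, with 7.23 and 1.23 CPM in replicate 1 and 3.33 and 0.666 in replicate 2. The list summed to 39823 CPM in replicate 1 and 20988 CPM in replicate 2, against 24104 and 11996 CPM for the pair. The pair was thus below the sum of the list in both libraries, and Mir221 lay between Mir17 and Mir20a in both.

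The labelled cell type could be checked only in part. The level of Mir206, a miRNA of skeletal muscle, was 2559 CPM in replicate 1 and 1028 in replicate 2. Mir133b had 88.0 and 20.4 CPM, below the blood marker Mir142 at 215 and 122 and the endothelial marker Mir126a at 213 and 134. Mir1a-2 had 3 reads in replicate 1 and 0 in replicate 2, and Mir1a-1, Mir133a-1 and Mir133a-2 had no read. Except for Mir206, these muscle genes have a shared stretch, and their low or zero counts do not bound their level. The 10 markers of blood, endothelium, liver, neurons, epithelium and pluripotent cells summed to 450 and 272 CPM, most of it Mir142 and Mir126a, and 4 of them had no read. These 4 have a shared stretch too, so the sums do not bound what they add. Both sums as counted were well below the level of the pair.

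The ratio of the hairpins within a library needs no scaling between libraries. Mir221 had 2.26 reads for each read of Mir222 in replicate 1 (exact 95% interval 2.25 to 2.27) and 1.95 in replicate 2 (1.93 to 1.97). As a share of the pair this is 69.3% and 66.1%, a mean of 67.7% ± 2.27 (SD, n = 2). Mir221 was the larger part in both libraries, and its share was lower in replicate 2.

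The log2 ratio of Mir221 to Mir222 differed by -0.21 in replicate 2 relative to replicate 1 (counting SE 0.0081), which is 1.16-fold. This passed a two-sided Fisher's exact test of the 4 counts with Benjamini-Hochberg adjustment (adjusted p = 3.24e-147). The test weighs counting error only and compares these libraries, not conditions. Almost any pair passes it at this depth. Of 61 pairs of neighbouring hairpins on the same strand, at most 10 kb apart and with at least 20 reads each in both libraries, 55 were called, or 90.2%. The call on Mir221 and Mir222 is therefore no sign of an unusual pair. Several pairs share a hairpin and are not independent.

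In size the change was among the smaller ones. Only 12 of the 61 pairs changed by less, the median absolute change was 0.59 on the log2 scale and the largest 2.84. Among the 15 pairs with at least 10000 reads on each hairpin in both libraries, 3 changed by less, namely Mir106b/Mir93 at 0.09, Mir99b/Mirlet7e at 0.10 and Mir532/Mir188 at 0.15. In these 15 the median absolute change was 0.52, and Mir15a/Mir16-1 had the largest, at 1.57. Mir16-1 has a stretch shared with another hairpin.

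Averaged over the libraries on the log2 scale, the hairpins of the pair were 2.10-fold apart. The median over the 61 pairs was 4.57-fold, and the hairpins were closer than Mir221 and Mir222 in 15 of them. In 27 of the 61 pairs a hairpin has a shared stretch, which makes their levels uncertain. Over the 34 pairs without such a stretch the median was 3.26-fold and 13 pairs were closer. Among the 15 pairs with at least 10000 reads the median was 2.47-fold and 6 were closer, so the pair stood near the middle of these. The 5′ hairpin was the lower one in 29 of the 61 pairs, Mir222 among them.

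**Figure D2:**
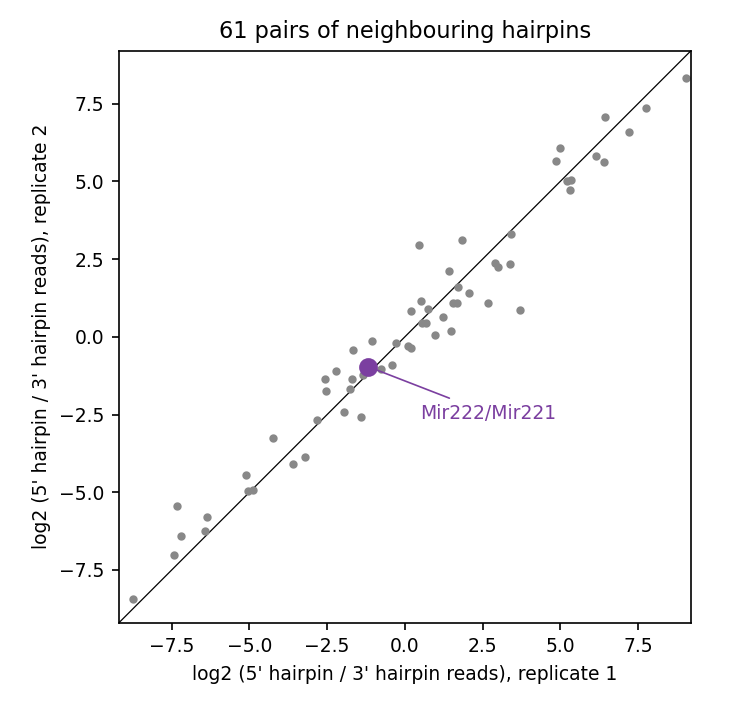
Log2 ratio of reads on the 5′ hairpin over the 3′ hairpin in replicate 2 against replicate 1, each grey point 1 of 61 pairs of neighbouring hairpins, with the line of equality. The purple point is Mir222 over Mir221, at -1.18 in replicate 1 and -0.96 in replicate 2, close to the line.

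The shift of each gene between the libraries was set beside that of all genes after TMM scaling. On this scale Mir221 had 12240 CPM in replicate 1 and 10824 in replicate 2, and Mir222 had 5419 and 5550. The coefficient of variation was 8.68% for Mir221 and 1.68% for Mir222, against a common one of 34.4% over all 556 genes with at least 10 reads. Both members were below that common figure, which pools genes of all levels, so being below it does not mark the pair.

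Mir221 was lower in replicate 2 by a log2 ratio of -0.18 (counting SE 0.0047), or 1.13-fold. An exact binomial test over the 556 genes, adjusted by Benjamini-Hochberg, called it with an adjusted p below 1e-300, the smallest value written. Mir222 had a log2 ratio of 0.03 (counting SE 0.0067, adjusted p = 9.37e-07, exact binomial test), or 1.02-fold higher in replicate 2. So 1 of the 2 genes was called lower and 1 higher.

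The same test called 41.5% of all 556 genes, 24.6% as higher and 16.9% as lower in replicate 2, and it called 67 of the 71 genes with a mean of at least 1000 CPM. A call at the depth of the pair is thus the rule. Both shifts were small beside 0.70, the SD of a log2 ratio of 2 libraries that follows from the common figure of 34.4%. The median absolute log2 ratio of those 71 genes, 0.24, was below it too. Among the 71 abundant genes, 29 had a smaller absolute log2 ratio than Mir221 and 7 a smaller one than Mir222. The middle 50% of these genes lay between -0.25 and 0.20, which holds both members.

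**Figure D3:**
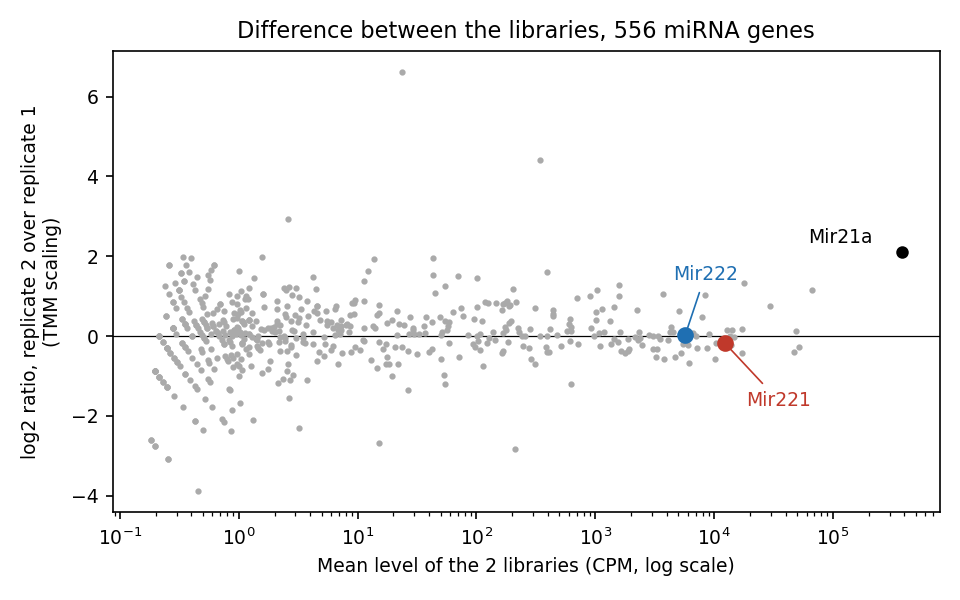
TMM-scaled log2 ratio of replicate 2 over replicate 1 against mean CPM on a log axis, each point 1 of 556 miRNA genes. Mir221 at -0.18 and Mir222 at 0.03 lie near the line at 0, while Mir21a, the most abundant gene, lies at 2.11.

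The direction of Mir222 depends on the scaling. Its log2 ratio was -0.03 with DESeq2 size factors, -0.86 with library totals and -0.14 with totals that leave out Mir21a. Each scaling moves all genes by the same amount, and a gene this close to 0 after TMM changes sign with a small shift. Mir221 was below 0 and called in all 8 scalings and filters. Library totals moved the median of all tested genes from 0.09 to -0.81. Relative to that median, which moves with the scaling as the members do, Mir221 stood at -0.27 and Mir222 at -0.06 on the log2 scale. Over all genes the calls split into 137 higher and 94 lower with TMM, 26 and 304 with library totals, and 94 and 138 with totals without Mir21a.

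**Figure D4:**
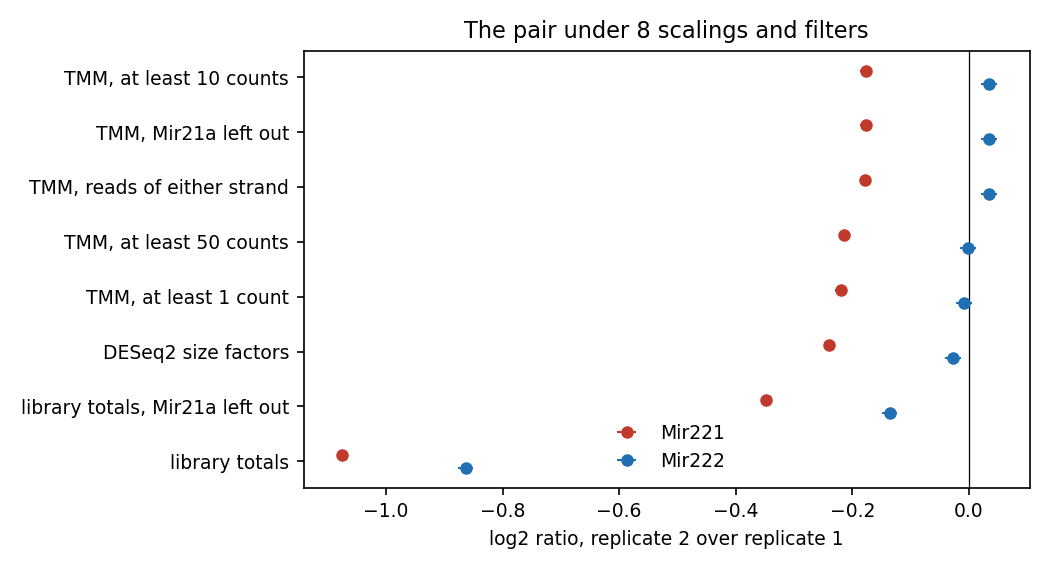
Log2 ratio of replicate 2 over replicate 1 for Mir221 (red) and Mir222 (blue) under 8 scalings and filters, with bars of 2 counting SEs that are often smaller than the points. Mir221 stays left of 0 throughout and Mir222 crosses 0, while the distance of 0.21 between them is fixed by construction, since a scaling moves both alike.

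On the list of p21-targeting miRNAs, 1 of 6 genes was called higher and 2 were called lower in replicate 2 after TMM scaling, where 24.6% of all tested genes were called higher and 16.9% lower. The median log2 ratio of the list was -0.06 against 0.09 over all tested genes. Mir17 was the higher one, at 0.14, and Mir20a at -0.29 and Mir93 at -0.10 the lower ones. With library totals the log2 ratio of Mir17 was -0.75 and that of Mir20a -1.19, and the direction of Mir17 thus also turns with the scaling. The muscle marker Mir206 had a TMM-scaled log2 ratio of -0.42 and Mir133b, which has a shared stretch, one of -1.21. Of the 10 markers of other cell types, 6 had enough reads to be tested. After TMM scaling 3 of the 6 were called higher in replicate 2, Mir126a at 0.23, Mir205 at 0.83 and Mir223 at 1.78, and none lower, beside the same shares of all tested genes. Mir223 had only 12 reads in each library (counting SE 0.58), so its ratio is set by the scaling alone. With library totals Mir126a was at -0.67, Mir205 at -0.07 and Mir223 at 0.88, so the direction of the first 2 turns with the scaling. Their part in the shifts of the pair was not tested.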

How the data were processed

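Small RNA of 2 C2C12 libraries was counted by the authors on 2202 miRNA genes. The deposited tables hold whole-number read counts for either strand, the strand of the gene and the opposite strand. Build mm10 and annotation GENCODE M21 are named per the file headers of the deposited readme files, and adapter trimming per the labels' protocols. Which aligner and counter were used is not given in the sources used here. Rows that name no gene were left out. Their share was 49.7% in replicate 1 and 38.8% in replicate 2.

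All 2202 identifiers matched GENCODE M21. Gene-strand counts were scaled to CPM, and for the shift by TMM in edgeR 4.0.16 under R 4.3.3. Genes with at least 10 reads over both libraries were tested with two-sided exact binomial tests, and neighbouring hairpins with Fisher's exact test (scipy 1.17.1), both with Benjamini-Hochberg adjustment and a threshold of 0.05. A prior count of 0.5 was added before the log2 ratios of single genes between libraries were taken. The ratios of neighbouring hairpins were taken on the counts as they are. Depth limits single levels to 3 reads, or 0.108 and 0.200 CPM. With 1 library on each side, no quasi-likelihood test could be fitted. Both tests were tried on simulated counts with counting error only and, for the binomial test, with the scaling known. That check does not cover the wider spread between these libraries. Other scalings (DESeq2 1.42.0 size factors, totals), filters and pair definitions were tried.

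The members, gene lists and tests were chosen with earlier results of these data known. The genes named are the pair, their 2 neighbours on each side by mean CPM, the 5 nearest by level, genes sharing the seed, the 3 leading other X-linked genes, p21-targeting genes, cell type markers, Mir21a and 11 reported targets. A further target on the list is not reported here, and the counts of targets leave it out. The pairs named among the 15 deepest were singled out after their values were seen.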

Additional observations from a re-analysis of the deposited data

Results flagged for a closer look

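Reads that mapped to several places lie outside the counts used for the pair, and they numbered 18382947 in replicate 1 and 5599235 in replicate 2, or 33.4% and 22.8% of all reads. They are not assigned to genes in the deposited tables, so whether any of them came from Mir221 or Mir222 cannot be told. The hairpins of the pair share at most 13 bases with another annotated miRNA hairpin, but the genome outside annotated transcripts was not searched.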

How the results depend on the processing

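Mir222 turned direction between the libraries under 5 alternatives. Against 0.03 with TMM, its log2 ratio was -0.028 with DESeq2 size factors (adjusted p = 0.000109, exact binomial test), -0.86 with library totals, -0.14 with totals without Mir21a, -0.0086 with a filter of 1 read and -0.0020 with a filter of 50 reads. Under the last 2 it was not called (adjusted p = 0.455 and 0.834, exact binomial test). The other 2 alternatives kept the sign. Mir221 kept its direction and its call under all 7 alternatives, with log2 ratios from -1.07 to -0.18. With Mir21a out of the denominator the mean level of Mir221 became 19386 and that of Mir222 9181 CPM, by construction of a smaller total. Leaving out a library gave 7930 to 16707 CPM for Mir221, 4066 to 7397 CPM for Mir222 and a share of Mir221 in the pair of 66.1% to 69.3%. No shift can be computed from 1 library. The pair definitions alter which other pairs are tested and leave the 4 counts of Mir221 and Mir222, and so the change of -0.21, as they are. Of 61 pairs 55 were called. The count was 46 of 51 with reads of either strand and 40 of 43 with a distance of 1 kb. It was 49 of 50 with a minimum of 100 reads and 31 of 34 with hairpins that have a shared stretch left out. The last alternative and TMM without Mir21a were chosen after seeing the data. No paired analysis was possible because there is 1 group. The p-values measure counting error between 2 libraries, and with n = 2 the SDs are themselves imprecise.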
